A study of Mus musculus with 9 samples.

Results

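Aqp8, Asic4, Trpc4 and Dpp6 are 4 genes of membrane channels and a channel partner that stood out for large increases in fetal mouse ovaries given oestradiol. They were chosen from the measured response to oestradiol, so their values in that comparison are given as a description with no test. All 4 symbols were found among the 23420 genes of the count files, and all 4 were among the 16360 genes that passed the filter on low counts. Fetal ovaries (E16, wild type, strain CD1) were kept on inserts for 24 hours with estradiol-17β (E2) at 3.67 µM, recombinant human BMP2 (bone morphogenetic protein 2) at 50 ng/ml, or vehicle. All groups shared a phenol red-free α-MEM medium with antibiotics, insulin, transferrin, selenium and linoleic acid. RNA was sequenced from 3 libraries for each of the 3 groups. The library titles show the treatment by prefix only, and B2 and C were read as BMP2 and vehicle. How many ovaries or embryos went into a library is not stated, nor whether libraries of a group are separate cultures. The p-values therefore cover the spread among these libraries alone, and that spread may be technical. The edgeR estimate of the spread beyond counting error was small, a biological coefficient of variation of 1.87%.

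Aquaporins are pores that let water cross membranes, and the aquaporin of Aqp8 also passes hydrogen peroxide and ammonia. In the adult mouse ovary it has been described in granulosa cells. TRPC channels are cation channels opened downstream of receptors that activate phospholipase C, and TRPC4 lets sodium and calcium into smooth muscle, endothelium and neurons. Acid-sensing ion channels (ASICs) are sodium channels related to the epithelial sodium channel ENaC. Most open when protons bind, but ASIC4 forms no proton-gated channel on its own. DPP6 is no channel: it resembles the protease DPP4 without being active as a protease, and in neurons it binds Kv4 potassium channels together with KChIP proteins and sets how fast these channels open and inactivate. Oestradiol acts on genes through receptors that bind DNA at oestrogen response elements or through other DNA-bound factors.

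The genes lie on 4 chromosomes of GRCm38, the mm10 build, each on the plus strand, and differ widely in size. In GENCODE vM21, Aqp8 (chromosome 7, 123462291 to 123468004) spans 5.71 kb with 1.58 kb of merged exons, and Asic4 (chromosome 1, 75450436 to 75474343) spans 23.9 kb with 2.73 kb of exons. Trpc4 (chromosome 3, 54156035 to 54318471) spans 162 kb with 8.03 kb of exons. Dpp6 (chromosome 5, 26817203 to 27727505) spans 910 kb with 12.3 kb of exons, and its 4 coding transcripts have 4 different start sites. No other annotated gene overlapped the exons of Aqp8, Trpc4 or Dpp6. A gene of unknown kind on the opposite strand, Gm37264, covered 18.1% of the exon bases of Asic4. The library kit does not mark strand, so reads from that stretch cannot be told apart. Gm37264 is not among the genes of the count files, so its reads there, if any, may have been counted as Asic4.

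RefSeq promoter windows (250 bases before to 50 after a start site, GRCm38.p6) were found for 3 of the 4 genes, 5 windows in all. They are shown because these genes were high together under an oestrogen. The windows were searched on both strands for the full oestrogen response element, in which GGTCA is followed after 3 bases by its reverse complement TGACC, for the core GGTCA alone, for the AP-1 site TGANTCA and for the SP1 box GGGCGG. Capitals mark the matches. The core is contained in the full element. The third Dpp6 window is printed because it alone held a GGTCA core.
Aqp8, chr7:123462044-123462343, plus strand: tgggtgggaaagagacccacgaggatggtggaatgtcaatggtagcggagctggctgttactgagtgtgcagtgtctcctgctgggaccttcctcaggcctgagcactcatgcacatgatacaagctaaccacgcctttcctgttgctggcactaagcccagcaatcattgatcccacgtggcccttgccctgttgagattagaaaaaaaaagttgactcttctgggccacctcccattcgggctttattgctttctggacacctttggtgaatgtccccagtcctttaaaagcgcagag
Trpc4, chr3:54155807-54156106, plus strand: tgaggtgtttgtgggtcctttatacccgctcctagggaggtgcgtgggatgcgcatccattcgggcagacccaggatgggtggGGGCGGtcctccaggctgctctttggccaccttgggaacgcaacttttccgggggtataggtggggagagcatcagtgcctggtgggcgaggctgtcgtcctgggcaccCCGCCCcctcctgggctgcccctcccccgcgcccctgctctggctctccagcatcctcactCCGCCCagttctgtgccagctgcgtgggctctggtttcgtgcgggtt
Dpp6, the third start site, chr5:27261685-27261984, plus strand: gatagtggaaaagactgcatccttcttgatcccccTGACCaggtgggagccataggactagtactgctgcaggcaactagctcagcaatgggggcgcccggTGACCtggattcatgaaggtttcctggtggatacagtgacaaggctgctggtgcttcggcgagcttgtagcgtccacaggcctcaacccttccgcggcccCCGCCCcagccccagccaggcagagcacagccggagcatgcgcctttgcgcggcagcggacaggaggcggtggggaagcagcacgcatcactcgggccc

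None of the 5 windows held the full oestrogen response element, which 0.07% of all 32851 mouse promoter windows hold. The third Dpp6 window held the GGTCA core at 2 places, 215 and 149 bases before the start site, both read on the minus strand. This core is common, with a match in 40.5% of all windows. The Aqp8 window and the first Dpp6 window held none of the 4 motifs. The Trpc4 window held 3 SP1 boxes, and the second and the third Dpp6 window 1 each, against 35.7% of all windows with at least 1. No AP-1 site was found, a motif present in 7.81% of windows. A match is a string of letters and not a site, and the absence of a match says only that these letters are not in these 300 bases.

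The libraries held 30418674 to 31778161 gene counts with E2, 33360565 to 34320077 with BMP2 and 30860223 to 34253992 with vehicle. Libraries correlated at 0.9959 to 0.9967 (log2 CPM, counts scaled to a common library total) within groups and at 0.9913 to 0.9953 between groups, and none stood apart from its group. Greb1, an early oestrogen target, reached 360 ± 7.6 CPM with E2 and 96.2 ± 3.02 CPM with vehicle (mean ± SD, n = 3). Id1, a target of BMP signalling, stood at 199 ± 5.71 CPM with E2, 175 ± 3.8 CPM with BMP2 and 151 ± 2.18 CPM with vehicle, so it was higher with BMP2 than with vehicle (1.16-fold, edgeR adjusted p = 1.01e-13) but highest with E2. Markers of the labelled tissue were present, among them the germ cell gene Ddx4 (177 ± 2.74 CPM with vehicle) and the pregranulosa cell gene Foxl2 (56.5 ± 1.26 CPM with vehicle).

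Under E2 all 4 genes were several-fold higher than under vehicle. Of 16360 genes tested, 32.3% passed in either direction, 15.8% were higher with E2 at an adjusted p under 0.05, 1.2% were over 2-fold higher, and 20.4% had all 3 E2 libraries above all 3 vehicle libraries. The 4 genes were picked for this comparison, so nothing is read from their place in it. Ranked by log2 fold change, they stood at places 3 (Aqp8), 6 (Asic4), 10 (Trpc4) and 14 (Dpp6). In bulk ovaries, more cells of a type that expresses a gene and more RNA per cell cannot be told apart.

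The water channel gene Aqp8 was barely detected without E2. It had 57, 68 and 51 counts in the E2 libraries, 2, 4 and 3 in the BMP2 libraries and 6, 5 and 3 in the vehicle libraries. Every E2 library was far above every other library, while BMP2 and vehicle overlapped. Normalized levels were 1.88 ± 0.274 CPM with E2, 0.0883 ± 0.0304 CPM with BMP2 and 0.143 ± 0.0444 CPM with vehicle (SD, n = 3). The E2 level was 12.8-fold the vehicle level (log2 fold change 3.68 ± 0.33 SE), on 176 counts against 14 over 3 libraries each. Aqp8 passed the filter through its E2 libraries alone, since no BMP2 or vehicle library reached the filter's limit of 0.308 CPM. Its spread was near what counting alone gives: the coefficient of variation was 14.5% with E2 and 31% with vehicle, where Poisson counting gives 13.1% and 46.3%.

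The cation channel gene Trpc4 was also low without E2. It had 221, 211 and 209 counts with E2, 28, 27 and 50 with BMP2, and 28, 27 and 29 with vehicle. The E2 libraries lay close together and well above the rest, and BMP2 replicate 3 stood above the other libraries without E2. Levels were 6.86 ± 0.371 CPM with E2, 1.03 ± 0.37 CPM with BMP2 and 0.863 ± 0.0401 CPM with vehicle. E2 was 7.92-fold above vehicle (log2 fold change 2.99 ± 0.16 SE). The spread among BMP2 libraries (coefficient of variation 36%) was larger than the 16.9% that counting alone gives. With E2 it was 5.41% against 6.84% from counting, and with vehicle 4.64% against 18.9%.

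Asic4, of the acid-sensing channel family, had 501, 553 and 524 counts with E2, 82, 71 and 74 with BMP2, and 60, 53 and 38 with vehicle. The 3 groups did not overlap, and vehicle replicate 3 was the lowest library. Levels were 16.9 ± 0.587 CPM with E2, 2.22 ± 0.155 CPM with BMP2 and 1.55 ± 0.325 CPM with vehicle. E2 was 10.9-fold above vehicle (log2 fold change 3.44 ± 0.11 SE).

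The potassium channel partner gene Dpp6 was the most abundant of the 4 in reads. It had 955, 929 and 977 counts with E2, 164, 161 and 171 with BMP2, and 181, 142 and 159 with vehicle. BMP2 and vehicle libraries overlapped and the E2 libraries stood apart. Levels were 30.6 ± 1.03 CPM with E2, 4.86 ± 0.0958 CPM with BMP2 and 4.94 ± 0.345 CPM with vehicle. E2 was 6.18-fold above vehicle (log2 fold change 2.63 ± 0.072 SE), with a coefficient of variation of 3.35% among the E2 libraries, where counting alone gives 3.24%.

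**Figure D1:**
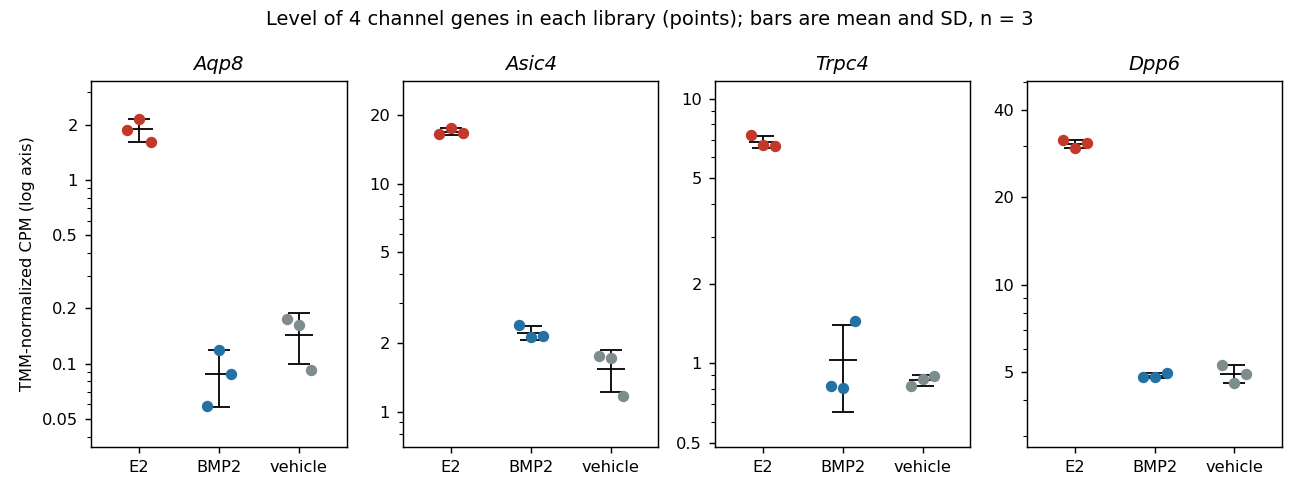
TMM-normalized CPM (log axis) of Aqp8, Asic4, Trpc4 and Dpp6 in each of the 9 libraries, with points for libraries and bars for the mean and SD of each group (n = 3). The lowest E2 library was 9.18-fold (Aqp8), 6.88-fold (Asic4), 4.55-fold (Trpc4) and 5.57-fold (Dpp6) above the highest of the other 6 libraries.

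The gap between the lowest E2 library and the highest of the 6 other libraries, as the plot of levels by library shows, was widest for Aqp8 at 9.18-fold (1.61 against 0.175 CPM). It was narrowest for Trpc4 at 4.55-fold (6.6 against 1.45 CPM), where the upper value is BMP2 replicate 3. Without any 1 E2 or vehicle library, the log2 fold change of E2 over vehicle lay between 3.45 and 3.85 for Aqp8, 3.28 and 3.55 for Asic4, 2.94 and 3.02 for Trpc4, and 2.58 and 2.68 for Dpp6. The genes were chosen for their rise in these same libraries, so the gaps and ranges are a description and no separate support.

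BMP2 did not take part in choosing the genes, although the vehicle libraries of that comparison did. Aqp8 reached the filter's limit in no BMP2 or vehicle library, so it is given no p-value and no call. The intervals printed for Aqp8 show only how uncertain its estimate is. Of the other 3 genes, 1 passed with BMP2 against vehicle. Asic4 rose 1.43-fold (log2 fold change 0.52 ± 0.16 SE, edgeR quasi-likelihood test, Benjamini-Hochberg adjusted p = 0.0163), and all 3 BMP2 libraries (2.4, 2.12 and 2.15 CPM) lay above all 3 vehicle libraries (1.75, 1.72 and 1.17 CPM). In this comparison 13.7% of all genes tested passed, 6.84% upward and 6.85% downward, 0.269% were over 2-fold higher, and 14.1% had every BMP2 library above every vehicle library. The Asic4 call was lost without BMP2 replicate 1 (log2 fold change 0.461, edgeR adjusted p = 0.0892) and without vehicle replicate 3 (0.355, edgeR adjusted p = 0.188). The 95% interval of the change ran from 1.15-fold to 1.79-fold.

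Dpp6 and Trpc4 did not pass with BMP2, with edgeR adjusted p = 0.909 for Dpp6 and 0.54 for Trpc4. For Dpp6 the estimate was 0.982-fold with a 95% interval of 0.857 to 1.13, so a change as large as that of Asic4 lies outside the interval. For Trpc4 it was 1.19-fold (0.869 to 1.63), and without BMP2 replicate 3 the log2 fold change was -0.0851 in place of 0.25. For Aqp8 the estimate was 0.623-fold with an interval of 0.258 to 1.51, and the counting interval of the ratio of 9 to 14 counts alone ran from 0.234 to 1.52. At these counts neither a fall nor a rise of Aqp8 within that interval can be told from no change.

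Set directly against BMP2, E2 was 20.5-fold higher for Aqp8 (log2 fold change 4.36 ± 0.36 SE), 7.58-fold higher for Asic4 (2.92 ± 0.1), 6.65-fold higher for Trpc4 (2.73 ± 0.15) and 6.3-fold higher for Dpp6 (2.65 ± 0.072). The E2 libraries chose the genes, so these are values with no test. In this comparison 14% of genes tested were higher with E2 at an adjusted p under 0.05, 1.29% were over 2-fold higher, 28.2% passed in either direction, and 19.8% had all 3 E2 libraries above all 3 BMP2 libraries. This comparison and that with vehicle share the E2 libraries.

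Levels of different genes are compared per length, as CPM per kb of merged exons (mean ± SD over 3 libraries). On this scale Aqp8 stood at 1.19 ± 0.173 with E2, 0.0559 ± 0.0192 with BMP2 and 0.0904 ± 0.0281 with vehicle. It was number 3 of 12 aquaporins with E2, after Aqp1 (5.33 ± 0.297) and Aqp5 (3.68 ± 0.469) and next to Aqp12 (0.947 ± 0.142), with SDs that overlap its own. With vehicle it was number 9. Its share of the summed aquaporin level was 9.27% with E2, 0.674% with BMP2 and 0.977% with vehicle.

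Asic4 was the highest of the 8 ASIC and ENaC genes with E2, at 6.2 ± 0.215 CPM per kb, ahead of Asic2 (2.06) and Asic1 (1.01). It was number 4 with BMP2 at 0.814 ± 0.0568 and with vehicle at 0.568 ± 0.119. It made up 57.9% of the summed level of that list with E2, 18.6% with BMP2 and 13.1% with vehicle. Trpc4 remained among the lower TRPC genes: it was number 6 of 7 with E2 (0.854 ± 0.0462 CPM per kb) and number 7 with BMP2 (0.128 ± 0.0461) and with vehicle (0.107 ± 0.00499). Trpc2 and Trpc7 were among the genes above it with E2, and all exon bases of Trpc2 are shared with overlapping genes, so its level is uncertain.

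Within the Kv4 complex Dpp6 was number 2 of 9 genes with E2 (2.48 ± 0.0834 CPM per kb), number 8 with BMP2 (0.394 ± 0.00776) and last with vehicle (0.4 ± 0.0279). With E2 its SD overlapped that of Kcnip3 (2.15 ± 0.313), and it lay below the pore gene Kcnd2 (8.73 ± 0.206). With vehicle it lay next to its close relative Dpp10 (0.436 ± 0.00925). These are sums over all exons of a gene, and the transcripts in use were not measured.

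**Figure D2:**
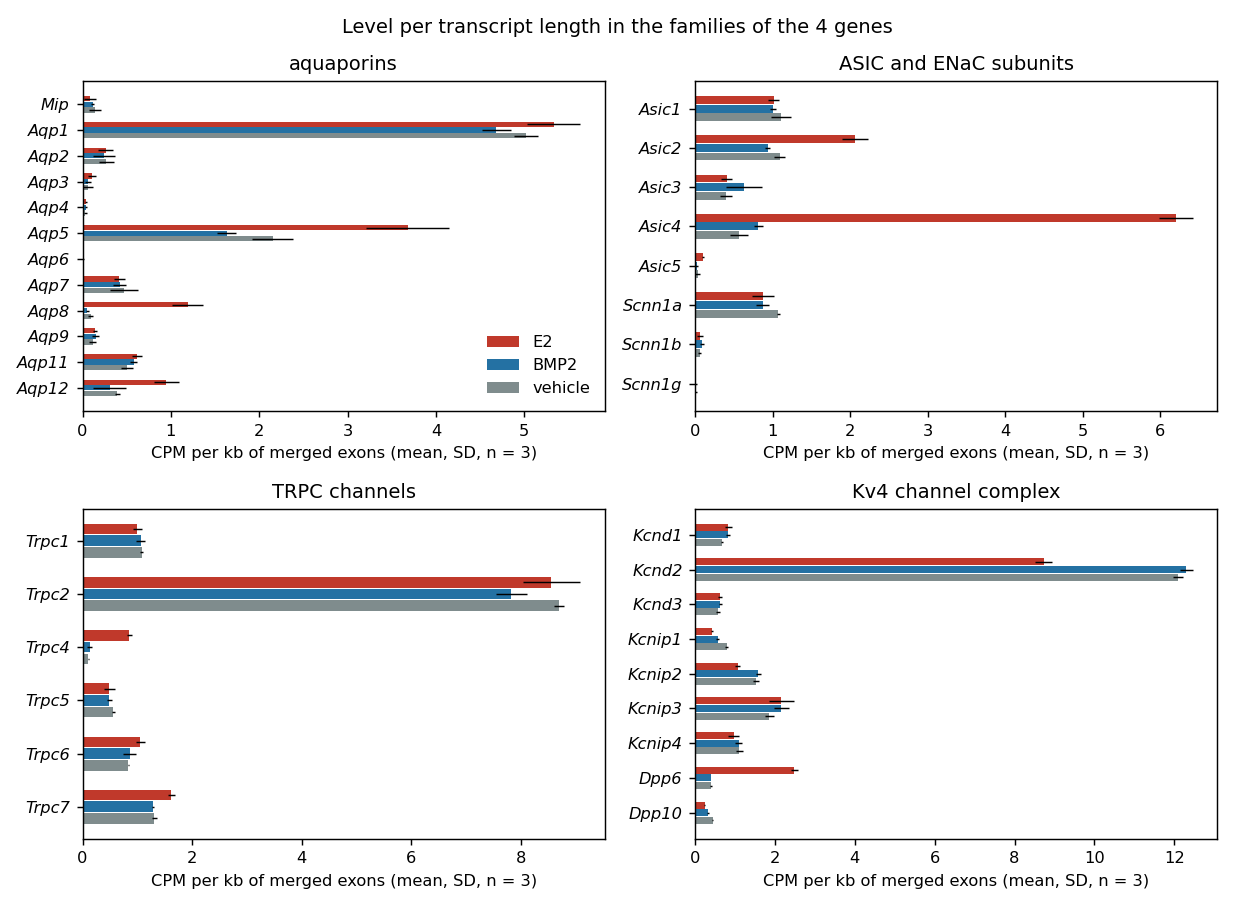
CPM per kb of merged exons (mean and SD, n = 3) with E2, BMP2 and vehicle for genes of the aquaporins, the ASIC and ENaC subunits, the TRPC channels and the Kv4 channel complex. Asic4 is the highest of its list with E2 at 6.2 CPM per kb, Aqp8 reaches 1.19, Trpc4 0.854 and Dpp6 2.48, while the pore gene Kcnd2 is lower with E2 (8.73) than with vehicle (12.1).

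The families of the 4 genes were tested under E2 without the 4 genes themselves, and their counts stand beside 15.8% higher and 16.5% lower over all genes tested. These lists are short, and nothing particular to a list is read from its count. Of 7 other aquaporins tested, 3 rose, 0 fell and 4 did not pass (median log2 fold change 0.29, against -0.0026 over all genes). Aqp5, a water channel of secretory epithelia, rose 1.71-fold (9.57 ± 1.22 CPM with E2 and 5.6 ± 0.61 CPM with vehicle, edgeR adjusted p = 2.8e-12). Aqp12 rose 2.37-fold at about 1 CPM (adjusted p = 4.8e-04), and Aqp11 1.22-fold (adjusted p = 0.0281). The Aqp11 call was lost without vehicle replicate 2 or 3 or E2 replicate 3 (log2 fold change down to 0.204, edgeR adjusted p up to 0.196). Aqp1, the most abundant aquaporin, did not pass (log2 fold change 0.087 ± 0.068 SE).

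Of 6 other TRPC genes, 3 rose, 0 fell and 3 did not pass (median 0.14). Trpc6 and Trpc7, which like Trpc4 encode cation channel subunits, were among those that rose, 1.25-fold and 1.24-fold (edgeR adjusted p = 0.019 and 0.0114). The Trpc6 call was lost without vehicle replicate 2 or E2 replicate 2 (edgeR adjusted p up to 0.124), and that of Trpc7 without E2 replicate 2 (edgeR adjusted p = 0.0573). Of 4 other ASIC and ENaC genes tested, 1 rose and 1 fell (median -0.041). Asic2, which forms proton-gated channels, rose 1.89-fold (8.78 ± 0.729 CPM with E2 and 4.66 ± 0.288 CPM with vehicle, adjusted p = 7.4e-15), and Scnn1a, an ENaC subunit, stood at 0.811-fold (adjusted p = 0.0466). The Scnn1a call was lost without any 1 vehicle library or without E2 replicate 2 or 3 (edgeR adjusted p up to 0.357).

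Of the 8 other genes of the Kv4 complex, to which Dpp6 belongs, 0 rose, 4 fell and 4 did not pass under E2 (median log2 fold change -0.33), where 15.8% of all genes were higher and 16.5% lower. Kcnd2, which encodes a Kv4 pore subunit, fell by 0.47 on the log2 scale (45 ± 1.06 CPM with E2 and 62.3 ± 0.619 CPM with vehicle, edgeR adjusted p = 4.0e-24). The KChIP genes Kcnip1 and Kcnip2 fell by 0.95 and 0.53 on the log2 scale (adjusted p = 1.9e-10 and 5.5e-05), and Dpp10, the nearest relative of Dpp6, fell by 0.86 (adjusted p = 1.1e-11). In the DPP4 family, to which Dpp10 also belongs, 2 of 5 other genes rose and 2 fell (median -0.14), and Dpp8 and Dpp9 rose only 1.09-fold and 1.08-fold while Dpp4 fell by 0.31 (log2). The Dpp4 call was lost without vehicle replicate 3 or E2 replicate 2 (edgeR adjusted p up to 0.12), and that of Dpp9 without vehicle replicate 3 or E2 replicate 1 or 3 (edgeR adjusted p up to 0.211).

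Over all 179 tested channel and partner genes other than the 4, 32 rose (17.9%) and 30 fell (16.8%) with E2, near the shares of all genes tested (15.8% upward and 16.5% downward), with a median log2 fold change of 0.014. Over 2-fold higher were 6 of them (3.35%), against 1.2% of all genes. Among them were Kcnk1, Kcne4, Kcnj12, Aqp12 and Trpv4. Kcnk1, a tandem pore potassium channel, rose 5.65-fold (18.1 ± 1.63 CPM with E2 and 3.21 ± 0.201 CPM with vehicle, adjusted p = 1.1e-55). Kcne4, an accessory subunit that dampens Kv channels, rose 5.31-fold (38.4 ± 2.78 CPM with E2 and 7.23 ± 0.586 CPM with vehicle, adjusted p = 4.7e-71), to a higher level per kb (14.5 CPM per kb) than any of the 4 genes. Kcnj12, an inward rectifier, rose 2.59-fold and Trpv4, a channel opened by cell swelling, 2.11-fold. Asic5 had 21 counts with E2 and 7 with vehicle over 3 libraries each and did not pass the filter.

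**Figure D3:**
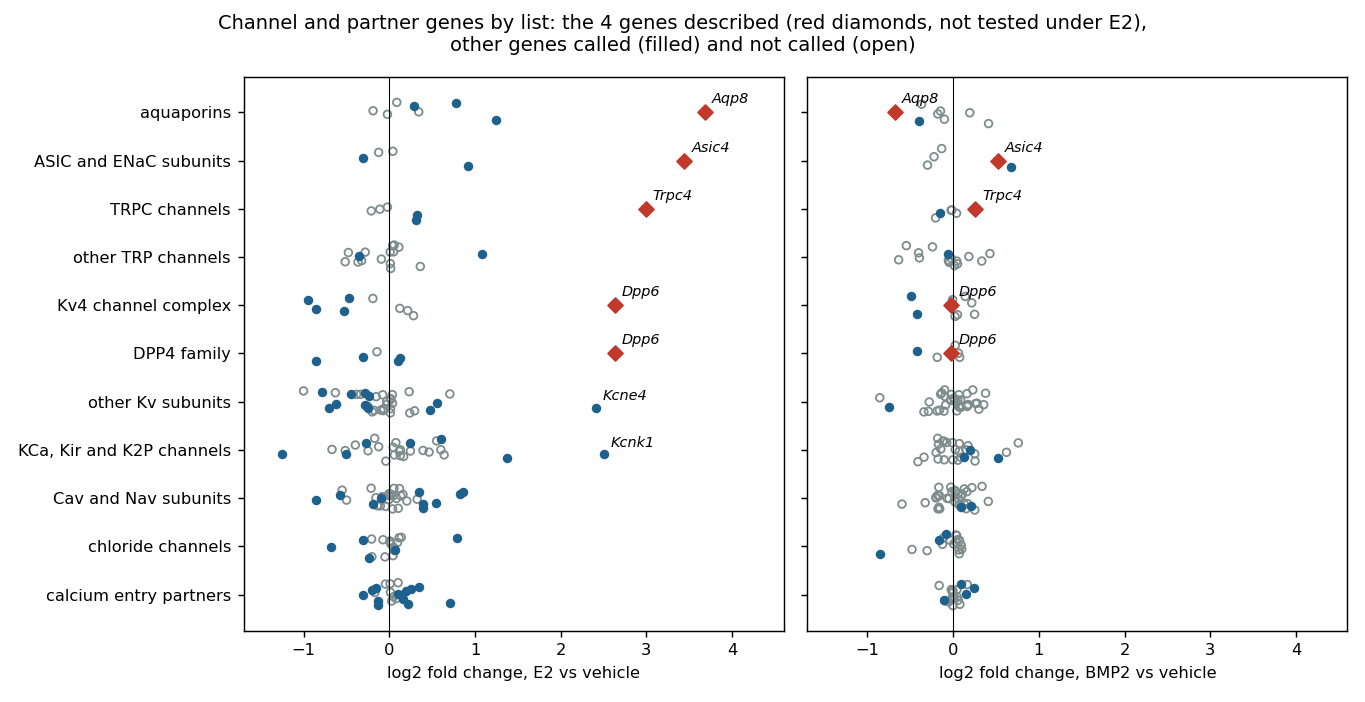
Log2 fold change of E2 over vehicle (left) and of BMP2 over vehicle (right) for tested genes of the 11 channel and partner lists, with the 4 genes as red diamonds, other genes called at an adjusted p under 0.05 filled and the rest open. Aqp8 (3.68), Asic4 (3.44), Trpc4 (2.99) and Dpp6 (2.63) lie to the right under E2 with Kcnk1 (2.50) and Kcne4 (2.41) next to them, and within -0.68 to 0.52 under BMP2.

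In the other lists, E2 moved genes both ways. Of 16 other TRP channels 1 rose (Trpv4) and 1 fell (Trpm5, by 0.35 on the log2 scale), with a median of 0.012. Of 36 other voltage-gated potassium channel subunits 3 rose and 8 fell (median -0.074), among them Kcna1, Kcna4 and Kcnh6, which fell by 0.71, 0.79 and 0.63. The Kcna4 call was lost without vehicle replicate 2 or E2 replicate 1 or 2 (log2 fold change as small as -0.568, edgeR adjusted p up to 0.196). Of 27 calcium-activated, inward rectifier and tandem pore potassium channels 4 rose and 3 fell (median 0.12), with Kcnj8, a pore of ATP-sensitive channels, 1.52-fold higher and Kcnk3 lower (9.4 ± 0.463 CPM with E2 and 22.4 ± 0.288 CPM with vehicle, adjusted p = 1.0e-39). Of 33 calcium and sodium channel subunits 6 rose and 4 fell (median 0.022): Cacng5 and Cacna1e rose 1.82-fold and 1.77-fold, and Scn10a and Cacna1b fell by 0.85 and 0.58. Of 18 chloride channels 2 rose and 3 fell (median 0.017), with Ano5 1.73-fold higher, while Best1, Ano4 and Clcn5 fell by 0.68, 0.31 and 0.24. The Best1 call was lost without vehicle replicate 1 or E2 replicate 1 or 2 (log2 fold change as small as -0.356, edgeR adjusted p up to 0.408), and that of Ano4 without vehicle replicate 2 or 3 or E2 replicate 2 (as small as -0.183, edgeR adjusted p up to 0.297). Of 20 partners of TRPC channels and store-operated calcium entry, 7 rose and 5 fell (median 0.038). Plcb2, a phospholipase C, rose 1.64-fold, Itpr1, a calcium release channel, 1.27-fold and Plcg2 1.19-fold, while Orai1, the pore of store-operated entry, fell by 0.31. The Plcg2 call was lost without vehicle replicate 1 or 2 or E2 replicate 1 or 2 (edgeR adjusted p up to 0.198).

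With BMP2, the share of channel genes called was near that of all genes. Of the same 179 genes, 10 rose and 10 fell with BMP2 (5.59% in each direction, against 6.84% upward and 6.85% downward over all genes), and 0 were over 2-fold higher. Asic3 rose 1.6-fold (1.53 ± 0.557 CPM with BMP2 and 0.961 ± 0.173 CPM with vehicle, edgeR adjusted p = 0.0309). The Asic3 call was lost with DESeq2 (adjusted p = 0.143) and without BMP2 replicate 1 or 2 or vehicle replicate 1 or 3 (edgeR adjusted p = 0.0605 to 0.337). Of 8 other Kv4 complex genes 0 rose and 2 fell, Kcnip1 (by 0.49 on the log2 scale) and Dpp10 (by 0.42). Of 7 other aquaporins 0 rose and 1, Aqp5, fell (by 0.40). Of 4 other ASIC and ENaC genes 1 rose (Asic3) and 0 fell, and of 6 other TRPC genes 1 rose and 1 fell (Trpc2, uncertain for its overlap). Kcnk1 (adjusted p = 0.526), Kcne4 (0.479), Kcnj12 (0.695), Aqp12 (0.602) and Trpv4 (0.952) did not pass with BMP2. In the lists of voltage-gated potassium, of calcium-activated, inward rectifier and tandem pore potassium, of calcium and sodium, and of chloride channels, 0, 3 (Kcnj3, Kcnk3 and Kcnt1), 2 (Cacna1d and Cacna1h) and 0 genes rose, and 1 (Kcna1), 0, 0 and 3 (Best1, Clcn5 and Ano1) fell. Of other TRP channels 0 rose and 1 (Trpm7) fell, of the DPP4 family 0 rose and 1 (Dpp10) fell, and of the calcium entry partners 3 rose (Orai2, Stim1 and Sestd1) and 1 fell (Cav1). Leaving out 1 library ended the BMP2 calls of Aqp5 (without vehicle replicate 2, edgeR adjusted p = 0.0751), Clcn5 (without BMP2 replicate 2, 0.0618), Kcnj3 (without BMP2 replicate 2 or vehicle replicate 1, up to 0.134) and Best1 (the same libraries, up to 0.297). It also ended those of Cacna1h (without BMP2 replicate 2 or 3 or vehicle replicate 1 or 3, up to 0.156), Sestd1 (without BMP2 replicate 1 or 3 or vehicle replicate 2, up to 0.28), Trpm7 (without BMP2 replicate 1 or 2 or vehicle replicate 3, up to 0.301) and Trpc2 (without BMP2 replicate 2 or 3 or any vehicle library, up to 0.17).

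The genes with the pattern most like each of the 4 were found by Pearson correlation of log2 CPM over the 9 libraries, among 14624 genes with at least 1 CPM in their highest group. The 9 libraries fall into 3 groups, with E2 apart, so the correlation is mostly the step between E2 and the rest and is a description only. Greb1 was among the 5 genes most like Asic4 (r = 0.9958), with Gas6 (0.9967). Myh11, a smooth muscle myosin, was among the 5 genes most like Dpp6 (r = 0.9983), with Ndrg2 (0.9988) and Gucy1a3 (0.9985), a subunit of the nitric oxide receptor. Grik3, a glutamate receptor channel, followed at 0.9981. The genes most like Aqp8 were Alad, Papln, Meg3, Traf3ip2 and Il4ra (0.9944 to 0.9971), and those most like Trpc4 were Slc25a28, Plbd2, Rev3l, Ccrl1 and Ldlrad3 (0.9927 to 0.9965). Likeness concerns shape and not size: Alad was 1.35-fold higher with E2, and Slc25a28 1.25-fold higher.

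**Figure D4:**
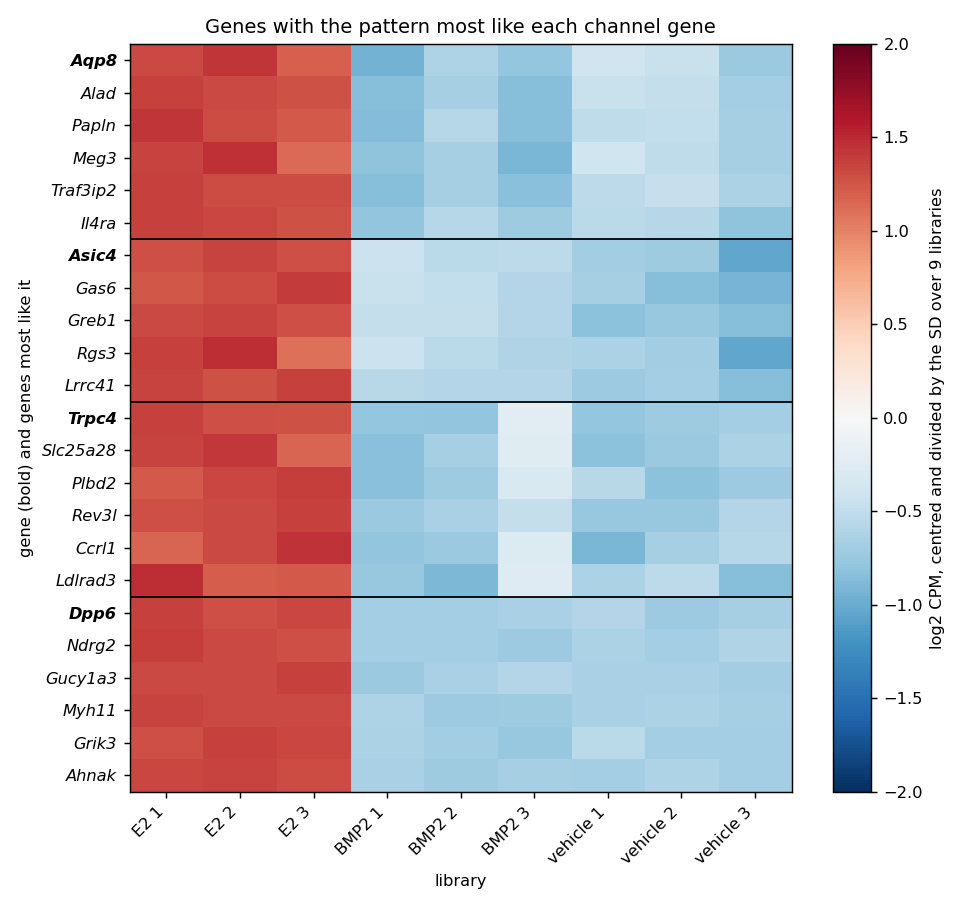
Log2 CPM of Aqp8, Asic4, Trpc4, Dpp6 (bold) and genes most like each, over 9 libraries, each gene centred and divided by its SD. The 3 E2 libraries are the highest in every row, and the genes next to Trpc4 share its higher value in BMP2 replicate 3.

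Markers of cell types that could carry these genes were measured in the same libraries, and their part in the results was not tested. The counts of markers called with E2 stand beside 15.8% higher and 16.5% lower over all genes tested, and those with BMP2 beside 6.84% and 6.85%. Of 8 neuron markers tested of 11, 0 rose and 3 fell with E2 (Nefm, Nefl and Prph), and the summed level of the list was 10.8 to 11.4 CPM with E2, 12.2 to 13.9 CPM with BMP2 and 13.9 to 16.5 CPM with vehicle. Overlapping genes share 32.8% of the exon bases of Nefl and 19.2% of those of Nefm, so the levels of both are less certain. Glia and Schwann cell markers summed to 90.6 to 94.2 CPM with E2, 148 to 154 CPM with BMP2 and 125 to 128 CPM with vehicle, with 0 of 5 higher and 2 lower under E2. Smooth muscle and pericyte markers summed to 538 to 551 CPM with E2, 365 to 367 CPM with BMP2 and 399 to 409 CPM with vehicle. Of these 9 genes 1 rose with E2, Myh11 (202 ± 2.8 CPM with E2 and 59.6 ± 0.689 CPM with vehicle), and 1 fell, while Acta2 stood at 167 ± 4.38 CPM with E2 and 163 ± 1.74 CPM with vehicle. With BMP2, 0 of these 9 genes rose and 3 fell. Of the 8 neuron markers 0 rose and 1 fell with BMP2, and of the 5 glia and Schwann cell markers 1 rose and 0 fell.

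Endothelial markers rose in 6 of 7 genes and fell in 1 with E2, with small median change (0.26 log2) and summed levels of 222 to 235 CPM with E2, 223 to 231 CPM with BMP2 and 222 to 228 CPM with vehicle. The gene that fell, Kdr, was the most abundant of the list (87.9 ± 3.09 CPM with E2 and 110 ± 1.08 CPM with vehicle). Its fall offsets the rises of the other genes in the sum. With BMP2, 2 of the 7 rose and 0 fell. All 7 surface epithelium and mesothelium markers fell with E2 and with BMP2 (427 to 434 CPM with E2, 543 to 556 CPM with BMP2, 621 to 646 CPM with vehicle). Mesonephric markers (0 higher and 2 lower of 6 with E2, 0 higher and 2 lower with BMP2) summed to 131 to 140 CPM with E2, 148 to 152 CPM with BMP2 and 150 to 156 CPM with vehicle. Most of this sum was Emx2 (117 ± 5.36 CPM with E2 and 127 ± 2.29 CPM with vehicle), so it says little about the other genes. Pax2, Lhx1 and Cdh16 stood at only 0.266, 0.297 and 1.18 CPM with vehicle. Pregranulosa markers (2 higher and 3 lower of 8 with E2, 3 higher and 2 lower with BMP2) summed to 1730 to 1740 CPM with E2, 1940 to 1960 CPM with BMP2 and 1910 to 1970 CPM with vehicle. The sum follows its most abundant gene, Kitl (776 ± 4.91 CPM with E2 and 978 ± 29.2 CPM with vehicle). Amhr2 stood at 298 and 300 CPM and Foxl2 at 59.7 and 56.5 CPM with E2 and vehicle. Wnt4 was higher with E2 (147 and 110 CPM) and Lgr5 lower (156 and 197 CPM). Germ cell markers (5 higher and 0 lower of 7 with E2) summed to 1040 to 1050 CPM with E2, 1020 to 1050 CPM with BMP2 and 958 to 1020 CPM with vehicle. With BMP2 also, 5 of them were higher and 0 lower. Stroma and steroidogenic markers (4 higher and 4 lower of 8 with E2, 0 higher and 1 lower with BMP2) summed to 545 to 556 CPM with E2, 552 to 565 CPM with BMP2 and 570 to 572 CPM with vehicle.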

How the data were processed

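RNA was measured by sequencing in 9 libraries of cultured fetal ovaries. The authors deposited raw read counts per gene, 1 file per library, each with 23420 genes and 5 summary rows, which held 38.2% to 39.7% of a library's total and were left out. The submitters' processing notes name TopHat2, HTSeq, DESeq2 and mm10, with no versions. The annotation and strand setting used are not given there. Per the labels' protocols, libraries were made from RNA with an integrity number over 9.

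The test was that of edgeR 4.0.16 (R 4.3.3), with filterByExpr defaults (minimum count 10, minimum total 15), TMM scaling, 1 robust quasi-likelihood fit to all 9 libraries with a mean per group (6 residual degrees of freedom), Benjamini-Hochberg adjustment over 16360 genes, called under 0.05. A standard error is the absolute log2 fold change over the root of its F value, and intervals are at 95%. The counting interval is exact (Clopper-Pearson) and covers counting error only. Likeness used log2 CPM with a prior count of 2. The script was tested on simulated data. Gene models are from GENCODE vM21, promoters from RefSeq.

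The 4 genes, the 20 gene lists (300 entries) and the tests were chosen with earlier results of these data known. Genes are named by rule: the 4 genes, Greb1, Pgr and Id1 as checks, up to 4 called genes of each channel list by size of change, channel genes over 2-fold higher with E2 at 0.1 CPM or more, and the 5 genes most like each of the 4. Alternatives were DESeq2 1.42.0, median-ratio size factors, no filter, a mean CPM of at least 1, only the groups compared, the replicate number as a block, no prior count, and each library left out. Some genes that fall under these rules are not reported here.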

Additional observations from a re-analysis of the deposited data

How the results depend on the processing

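Under every alternative that gave a value, the log2 fold changes of the 4 genes for E2 over vehicle kept their direction. Leaving out 1 library at a time moved Aqp8 the most (3.45 to 3.85, against 3.68 with all libraries), followed by Asic4 (3.28 to 3.55, against 3.44). The genes were chosen on these same libraries, so this too is a description only. Aqp8 did not reach a mean CPM of at least 1, and in the fit of BMP2 and vehicle alone it did not pass the filter, so these gave no value. The numbers of genes called with BMP2 were 2239 (1120 lower) with edgeR and 1457 (711 lower) with DESeq2; the cause was not tested. For BMP2 over vehicle, leaving out 1 library at a time gave log2 fold changes of 0.355 to 0.625 for Asic4 (edgeR adjusted p = 0.0155 to 0.188), -0.0851 to 0.398 for Trpc4, -0.0716 to 0.0288 for Dpp6, -0.942 to -0.465 for Aqp8, -0.431 to 0.23 for Trpv4 and -0.434 to 0.0105 for Kcnj12. The Asic4 call held with DESeq2 (adjusted p = 0.0313) and with only the groups compared (edgeR adjusted p = 0.0364). Channel and partner genes lower with BMP2 numbered 6 to 9 in these fits, the lowest without BMP2 replicate 2, against 10 with all libraries. Of the named channel genes' values under all alternatives, 718 kept direction and side of the threshold, 75 lost a call and 4 changed sign. The calls most often lost were those of Scnn1a with E2 and Trpc2 with BMP2.

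Replicate numbers of the titles showed no clear pairing of the libraries: deviations of same-numbered libraries correlated at -0.0311 to 0.0271, and 4 of 9 libraries correlated best with their own number. The correlation weighs all genes tested alike, so counting noise of low genes can hide a pairing. It cannot decide whether the libraries are paired. With the replicate block, 5512 genes were called for E2 and 2512 for BMP2 against vehicle, where the fit without it called 5278 and 2239. Asic4 kept its call with BMP2 (edgeR adjusted p = 0.0138), and Trpc4 and Dpp6 again did not pass with BMP2.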
